A study of Oryza sativa with 36 samples.

Results

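The shoots of mock-treated rice were compared between 6 h and 2 h after application, with 3 libraries at 6 h and 3 at 2 h, chosen by their labels alone and making up 6 of the 36 RNA sequencing libraries of the series. All of them came from wild-type plants of the Nipponbare background, 3 weeks old and grown hydroponically in a half-strength Hoagland solution that contained phosphate. The light period was 12 h at 200 µmol photons m-2 s-1, with 27 °C by day and 25 °C by night. Mock-treated plants received the acetone solvent without zaxinone, the apocarotenoid under study, and the zaxinone-treated plants used for comparison received 5 µM of it. No labelled genotype, allele or compound differed between the mock shoots of 6 h and those of 2 h. They differed in the time since application and therefore in the time of day, and these 2 cannot be told apart. The hour at which the solution was applied is not given in the sources used here.

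Leaves follow a daily programme of transcription. A circadian clock of interlocked transcription factors, together with light and the sugars made by photosynthesis, sets the hours at which genes for light harvesting, carbon fixation, starch turnover, hormone response and secondary metabolism are transcribed. Sugars made in the light are broken down through glycolysis to pyruvate, which enters the citrate cycle in mitochondria, and glucosyltransferases attach glucose to hormones and pigments for storage or inactivation. The comparison over time in mock shoots gives the change that shoots without zaxinone showed over the hours in which the zaxinone response was sampled.

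Between 20501465 and 24730026 reads were counted on transcripts in the 6 h libraries, against 25592025 to 26904536 in the 2 h libraries, so that the totals of the groups did not overlap. Log2 values of libraries from the same time correlated with r between 0.992 and 0.994, and those from different times with r between 0.974 and 0.979. These correlations are across transcripts, which are not independent replicates. The 10 most abundant transcripts took between 6.89% and 7.76% of the reads of a library at 6 h, against 8.71% to 9.51% at 2 h. As a check of the tissue label, 241 transcripts were selected in other libraries, the mock libraries of 24 h, for a high level in roots and near absence in shoots. Their summed level was between 66.6 and 73.6 CPM in the mock shoots of 6 h, against 39.8 to 44.9 CPM in those of 2 h, while it lay between 24500 and 32000 CPM in the mock roots of both times. CPM is the read count scaled to the size of the library, with TMM factors over the 18 shoot libraries (or, for roots, the 18 root libraries). In all 6 mock shoot libraries 35 of the 241 were at 0 reads, and of the 44 with enough reads for a test, 4 were called higher and 1 lower at 6 h, beside 15.2% higher and 12.8% lower calls over all tested transcripts. The reverse set, 195 transcripts high in shoots and nearly absent in roots at 24 h, summed to between 15100 and 16900 CPM in the mock shoots of 6 h, against 16800 to 19900 CPM in those of 2 h. All 195 were tested, and 10 were called higher and 76 lower at 6 h. In bulk tissue, fewer cells of a type and less RNA per cell cannot be told apart, and the part of these shifts in the results was not tested.

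A large share of the shoot transcriptome differed between the 2 times. Of 23294 transcripts tested by edgeR's quasi-likelihood test, 3551 were higher at 6 h than at 2 h and 2987 were lower at an adjusted p (Benjamini-Hochberg over all tested transcripts) under 0.05. This amounted to 15.2% of the tested transcripts called higher and 12.8% called lower, or 28.1% in either direction. Most of these changes were moderate, with a median log2 fold change of 0.55 among the transcripts called higher and of -0.60 among those called lower. A log2 fold change above 1 was reached by 644 of the transcripts called higher (18.1%), and one below -1 by 643 of those called lower (21.5%). Changes above 8-fold were found for 37 transcripts called higher and 28 called lower, and changes above 16-fold for 12 and 9. The 3 libraries of 6 h did not overlap the 3 of 2 h in CPM for 3504 transcripts with a higher call and 2897 with a lower call, beside 42.4% of all tested transcripts without overlap. No transcript was at 0 reads in all 3 libraries of one time while it reached a mean of 1 CPM at the other.

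The plot of change against level shows that calls were made over the whole range of expression. Transcripts with a mean of 10 to 100 CPM over the 6 libraries gave most of the calls, 2030 higher and 1645 lower of 10711 tested. This was 34.3% of that class, beside 28.1% of all tested transcripts. Among the 77 transcripts with a mean over 1000 CPM, 7 were called higher and 28 lower (45.5%). Together, the transcripts called higher took between 22.1% and 22.3% of the reads of a library at 6 h, against 14.1% to 14.5% at 2 h. Those called lower took between 18.1% and 18.2% of the reads at 6 h, against 26.9% to 27.8% at 2 h. Since the calls were made on these libraries, these shares describe how much of the shoot mRNA was involved and are no separate test. Over the 12 chromosomes, as the locus identifiers carry them, the called share lay between 26.3% on chromosome 11 and 29.8% on chromosome 3. The share of higher calls among all calls was 62.7% on chromosome 12 and 60.9% on chromosome 11, and on the other 10 chromosomes it lay between 51.2% and 57.9%.

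**Figure D1:**
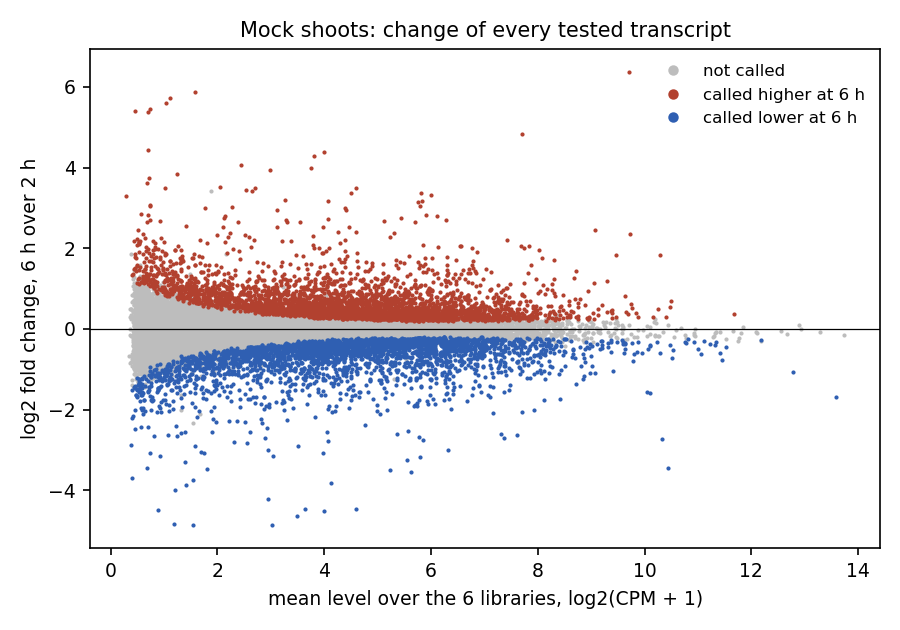
Log2 fold change of 6 h over 2 h in mock shoots (vertical axis) against the mean level over the 6 libraries, log2(CPM + 1), for the 23294 tested transcripts. Red points are the 3551 called higher at 6 h, blue points the 2987 called lower and grey points those not called. Calls extend over the whole range of levels, and the highest red point is Os07g34570 at 6.37.

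The files and the reference table used here do not pair transcripts with gene names, so the transcripts with the largest changes are given by identifier for 2 in each direction. They had the largest fold changes among the calls whose mean over the 6 libraries reached 10 CPM and whose times did not overlap, of which there were 2429 higher and 1999 lower. Os07g34570 had 1650, 1740 and 1550 CPM in the mock shoots of 6 h, against 21.4, 15.0 and 23.4 CPM in those of 2 h. Every library of 6 h was far above every library of 2 h, with a log2 fold change of 6.37 ± 0.16 (SE) and an edgeR adjusted p of 6.36e-10. In mock shoots of 24 h the same transcript was at 1.49, 1.52 and 1.77 CPM, below the level of 2 h.

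Os03g47610 had 401, 423 and 381 CPM in mock shoots at 6 h, against 12.7, 15.0 and 14.5 CPM at 2 h. The groups did not overlap, and the log2 fold change was 4.84 ± 0.10 with an edgeR adjusted p of 6.58e-11. At 24 h it was at 11.2, 7.62 and 8.86 CPM, again under the libraries of 2 h.

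Among the transcripts that fell, Os07g08150 had 1.10, 0.789 and 0.494 CPM at 6 h, against 20.8, 20.1 and 18.1 CPM at 2 h. The libraries of 6 h held as few as 13 reads of it, and the log2 fold change was -4.64 ± 0.19 with an edgeR adjusted p of 1.3e-08. At 24 h it stood at 91.2, 106 and 72.0 CPM, above both earlier times. Os02g58100 had 1.10, 0.908 and 1.67 CPM at 6 h, against 29.1, 24.8 and 32.3 CPM at 2 h. Its log2 fold change was -4.53 ± 0.18 with an edgeR adjusted p of 1.21e-08, and at 24 h it was at 66.3, 73.4 and 62.1 CPM. The 4 transcripts shared a pattern in which the level of 24 h lay beyond that of 2 h, on the side away from 6 h, in all 3 mock libraries of 24 h.

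**Figure D2:**
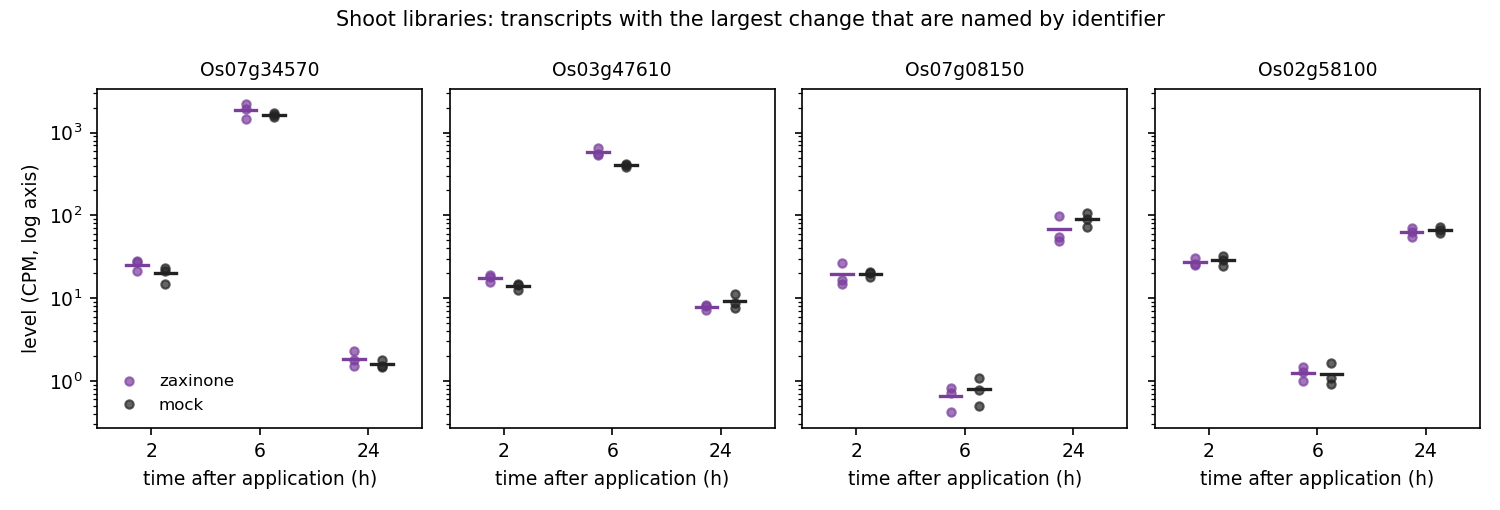
Level of the 4 transcripts named by identifier in each shoot library at 2, 6 and 24 h (CPM, log axis), with zaxinone libraries in purple left of the mock libraries in black and short lines for the means of 3 libraries. In mock shoots Os07g34570 stood between 1550 and 1740 CPM at 6 h and between 1.49 and 1.77 CPM at 24 h, while Os07g08150 stood between 0.494 and 1.10 CPM at 6 h.

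The study annotates loci of sugar breakdown, glucosylation and cytokinin action, and these give the change over time in pathways that can be named. It chose the sugar and glucosyltransferase loci for their response to zaxinone in roots of the same series. For the mock shoots this is another contrast in other libraries. Mock roots of 6 h were controls in the choice of the sugar loci, however, and are used again in the comparison with roots. The qRT-PCR loci were also picked from the root data. Of the 58 loci, 47 had enough reads in mock shoots for a test, and 4 were called higher and 13 lower, which is 36.2% of those tested beside 28.1% of all transcripts. The median log2 fold change over the 47 was -0.09, beside 0.0048 over all 23294 tested transcripts. Many of them belong to gene families, the glucosyltransferases above all, and where copies are near-identical their reads could have been split or lost in the counting. Of the 17 called loci, 9 kept their call in all 8 other fits (DESeq2, other scalings and filters, the replicate block and all shoot libraries together), 6 kept it with each library left out in turn and in those fits, and DESeq2 ended 3 of the calls.

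Of 14 loci annotated to glycolysis, all tested, 2 were called higher and 2 lower (28.6%, near the 28.1% of all transcripts). The median log2 fold change was -0.02, over members that went both ways. Changes ranged between -0.66 and 0.29 on the log2 scale. The largest rise was in Os02g48360, a diphosphate-dependent phosphofructokinase, which catalyses the interconversion of fructose-6-phosphate and fructose bisphosphate with pyrophosphate. It had 112, 106 and 102 CPM at 6 h, against 87.7, 82.2 and 92.9 CPM at 2 h. The groups did not overlap, and the log2 fold change was 0.29 ± 0.08 with an edgeR adjusted p of 0.0129. Without replicate 2 of 2 h or replicate 1 of 6 h the call was lost, with an adjusted p of up to 0.0648.

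Os02g07490, a NAD-dependent glyceraldehyde-phosphate dehydrogenase, had 49.8, 54.0 and 52.1 CPM at 6 h, against 45.4, 44.5 and 44.5 CPM at 2 h. The log2 fold change was 0.22 ± 0.07 (edgeR adjusted p = 0.0363), and the call was lost on leaving out any of the 6 libraries, with an adjusted p between 0.0577 and 0.129. The other locus with this activity, Os04g40950, was not called and had a log2 fold change of -0.02 ± 0.08.

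Os08g02700, one of 3 fructose-bisphosphate aldolases, had 2.30, 2.76 and 3.15 CPM at 6 h, against 4.30, 5.58 and 3.18 CPM at 2 h. Its log2 fold change was -0.66 ± 0.22 (edgeR adjusted p = 0.0445). The call held only without replicate 3 of 2 h, and on leaving out any of the other 5 libraries the adjusted p reached up to 0.202. The other aldolases, Os05g33380 and Os01g02880, were not called and had log2 fold changes of -0.02 ± 0.07 and -0.04 ± 0.07.

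Os11g10980 was the only one of 4 pyruvate kinases, the last enzymes of glycolysis, to be called. It had 13.1, 12.1 and 11.6 CPM at 6 h, against 14.7, 14.2 and 17.4 CPM at 2 h, a log2 fold change of -0.33 ± 0.11 (edgeR adjusted p = 0.0439). The call was lost without replicate 3 of 2 h or without any 1 of the 3 libraries of 6 h, with an adjusted p of up to 0.165. The other 3 pyruvate kinases, Os12g05110, Os07g08340 and Os01g16960, had log2 fold changes of -0.03 ± 0.08, 0.14 ± 0.07 and 0.15 ± 0.07 and were not called.

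Around pyruvate, the largest change was in pyruvate phosphate dikinase, the enzyme that turns pyruvate back into phosphoenolpyruvate. Its locus Os05g33570 had 331, 331 and 293 CPM at 6 h, against 702, 591 and 761 CPM at 2 h. All 3 libraries of 6 h stood below all those of 2 h, and the log2 fold change was -1.10 ± 0.10 with an edgeR adjusted p of 7.4e-06. At 24 h, with 803, 755 and 835 CPM, the mock shoots were again far above those of 6 h. Of the 8 loci annotated to pyruvate and the citrate cycle, 1 was called higher and 3 lower, beside 28.1% of all transcripts called in either direction.

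Os12g42230, annotated to the pyruvate dehydrogenase E1 reaction by which pyruvate enters the citrate cycle as acetyl-CoA, had 45.2, 46.7 and 47.1 CPM at 6 h, against 58.7, 61.4 and 63.4 CPM at 2 h. The groups did not overlap, and the log2 fold change was -0.40 ± 0.07 with an edgeR adjusted p of 0.00122. The locus of the E2 acetyltransferase of the same complex, Os12g08170, and that of dihydrolipoamide dehydrogenase, Os05g06460, were not called and had log2 fold changes of -0.09 ± 0.09 and -0.07 ± 0.08.

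Os02g10070, a citrate synthase, had 48.1, 57.2 and 51.8 CPM at 6 h, against 60.9, 62.7 and 61.2 CPM at 2 h (log2 fold change -0.23 ± 0.08, edgeR adjusted p = 0.044). Of the 6 libraries, only replicate 2 of 6 h could be left out without loss of this call, and the adjusted p reached up to 0.174. Os01g46070, a malate dehydrogenase, had 256, 227 and 240 CPM at 6 h, against 200, 217 and 201 CPM at 2 h, a log2 fold change of 0.23 ± 0.08 (edgeR adjusted p = 0.0414). That call was lost without replicate 1 or 3 of 2 h and without replicate 1 or 3 of 6 h, with an adjusted p of up to 0.177. The changes of both enzymes were smaller than that of pyruvate phosphate dikinase.

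The sugar list also holds loci annotated to dehydrogenases outside these pathways, 2 in number, of which 1 was tested. Os07g46920, annotated to secoisolariciresinol dehydrogenase of lignan synthesis, had 4.41, 6.43 and 9.54 CPM at 6 h, against 19.6, 24.0 and 9.71 CPM at 2 h. The groups came close to each other in replicate 3 of both times, and the log2 fold change was -1.37 ± 0.31 with an edgeR adjusted p of 0.0054. On leaving out each library in turn the adjusted p reached at most 0.0312.

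Of 13 glucosyltransferase loci, 11 were tested, and 1 was called higher and 4 lower at 6 h (45.5%, beside 28.1% of all transcripts). The median log2 fold change over the 11 was -0.47. Os02g11640, annotated as a UDP-glucose-dependent glucosyltransferase, had 7.13, 9.47 and 8.66 CPM at 6 h, against 53.5, 37.3 and 40.7 CPM at 2 h. All libraries of 6 h stood far below those of 2 h, with a log2 fold change of -2.37 ± 0.15 and an edgeR adjusted p of 2.69e-07. At 24 h it was back at 52.4, 62.1 and 47.7 CPM.

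Os01g08440, annotated to the glucosylation of crocetin, a carotenoid-derived acid, had 33.8, 27.5 and 28.2 CPM at 6 h, against 107, 79.2 and 112 CPM at 2 h. It fell without overlap by a log2 fold change of -1.73 ± 0.13 (edgeR adjusted p = 1.28e-06), and at 24 h it was at 87.1, 98.8 and 92.8 CPM. Both of the largest falls among the glucosyltransferases were thus accompanied by high levels at 24 h.

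Os05g12450, annotated to hydroquinone glucosylation, had 7.54, 8.41 and 6.31 CPM at 6 h, against 10.3, 8.46 and 12.7 CPM at 2 h, a log2 fold change of -0.49 ± 0.16 (edgeR adjusted p = 0.0393). This call was lost without replicate 1 or 3 of 2 h and without replicate 1 or 3 of 6 h, with an adjusted p of up to 0.149. Os01g53430, annotated to anthocyanidin glucosylation, rested on between 2 and 19 reads per library, with 0.138, 0.434 and 0.076 CPM at 6 h, against 0.736, 0.620 and 0.607 CPM at 2 h. It had a log2 fold change of -1.56 ± 0.51 (edgeR adjusted p = 0.0393). Leaving out replicate 2 of 6 h gave -2.59 and kept the call, while leaving out any of the other 5 libraries ended it, with an adjusted p of up to 0.139. The calls of Os02g11640 and Os01g08440 held on leaving out each of the 6 libraries.

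Os11g04860, annotated to the glucosylation of a cyanidin rutinoside, was the only glucosyltransferase called higher. It had 10.3, 10.1 and 7.56 CPM at 6 h, against 4.30, 4.85 and 7.62 CPM at 2 h, so that the groups overlapped in replicate 3 of both times. The log2 fold change was 0.74 ± 0.20 with an edgeR adjusted p of 0.0174. Without replicate 1 or 2 of either time the call was lost, with an adjusted p of up to 0.0729. The other 3 tested anthocyanidin loci, Os05g45090, Os07g31960 and Os05g45100, had log2 fold changes of -0.86 ± 0.51, -0.27 ± 0.16 and -0.47 ± 0.42 and were not called, although without replicate 3 of 2 h Os05g45090 was called lower at -1.26 (adjusted p = 0.0492).

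**Figure D3:**
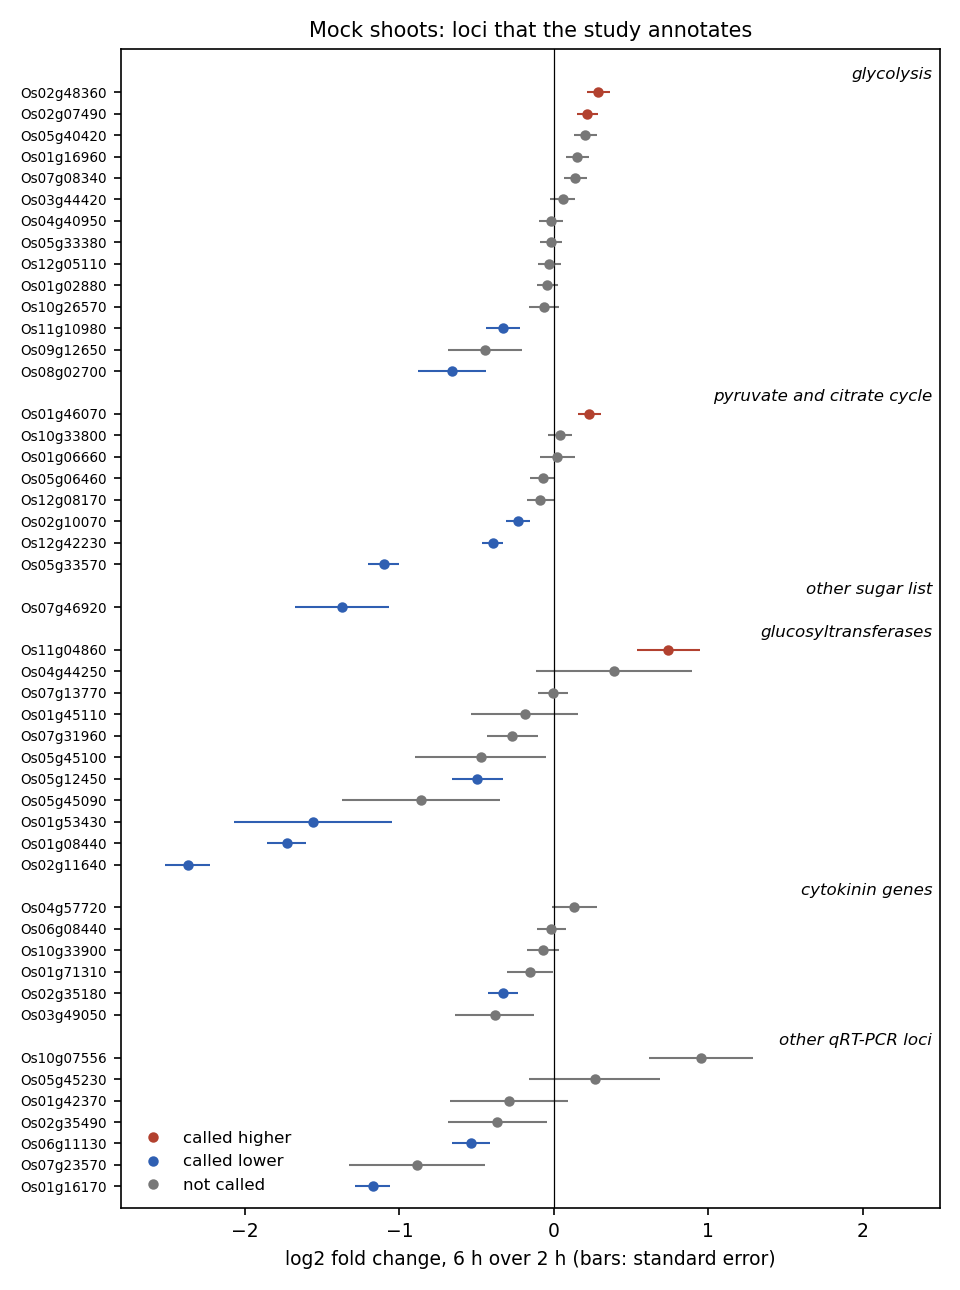
Log2 fold change of 6 h over 2 h in mock shoots (horizontal axis; points, with the standard error as bars) for the 47 tested loci that the study annotates or measured by qRT-PCR, grouped by pathway. Red points were called higher, blue points lower and grey points not called. The largest fall is that of the glucosyltransferase Os02g11640 at -2.37, while the glycolysis loci lie between -0.66 and 0.29.

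Cytokinins, the hormones of cell division, are sensed through a relay of receptors and response regulators. Of 7 cytokinin loci, 6 were tested and 1 was called (16.7%, beside 28.1% of all transcripts), the response regulator OsRR10 (Os02g35180). It had 65.2, 70.4 and 71.2 CPM at 6 h, against 87.8, 74.2 and 98.3 CPM at 2 h, with no overlap, a log2 fold change of -0.33 ± 0.10 and an edgeR adjusted p of 0.0259. Only without replicate 2 of 2 h did the call hold, and on leaving out any of the other 5 libraries the adjusted p reached up to 0.0949. OsRR6 (Os04g57720), also a response regulator, had a log2 fold change of 0.13 ± 0.15, the B-type regulator OsRR22 (Os06g08440) one of -0.02 ± 0.09 and OsCKX4 (Os01g71310), an oxidase that degrades cytokinins, one of -0.15 ± 0.15, none of them called. Os03g49050, a locus of cytokinin biosynthesis, was not called at -0.38 ± 0.26, but without replicate 1 of 6 h it was called lower at -0.79 (adjusted p = 0.0189).

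Loci that were also measured by qRT-PCR form a last list, in which Os01g06660 is the 2-oxo acid decarboxylase of the sugar list. Of its 15 loci, 8 were tested in mock shoots, 0 were called higher and 2 lower, a share near the 28.1% of all transcripts. Os01g16170 had 29.6, 26.2 and 26.6 CPM at 6 h, against 61.5, 52.1 and 73.0 CPM at 2 h (log2 fold change -1.17 ± 0.12, edgeR adjusted p = 1.3e-05), and reached 122, 142 and 136 CPM at 24 h. Os06g11130 had 29.5, 26.2 and 31.3 CPM at 6 h, against 50.6, 40.4 and 35.6 CPM at 2 h (log2 fold change -0.54 ± 0.12, edgeR adjusted p = 0.00637). With all 18 shoot libraries in one fit the call of Os06g11130 was lost (adjusted p = 0.0593). In both loci the times did not overlap.

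The same interval was measured in shoots treated with zaxinone, in 6 libraries that the mock comparison does not use. There, 3166 of 23190 tested transcripts were called higher at 6 h (13.7%) and 3537 lower (15.3%), or 28.9% in either direction. Without replicate 1 of the zaxinone shoots of 2 h these counts were 1978 and 2346, and without replicate 2 of those of 6 h they were 3779 and 4334. Of the 3551 transcripts called higher in mock shoots, 3538 were tested in zaxinone shoots, 3448 of them had a log2 fold change of the same sign and 2387 were also called higher. Of the 2987 called lower in mock shoots, 2970 were tested, 2941 had the same sign and 2243 were also called lower. No transcript called higher in mock shoots was called lower in zaxinone shoots, and 1 called lower in mock shoots was called higher there. The median log2 fold change of the transcripts called higher in mock shoots was 0.49 in zaxinone shoots and 0.54 in mock shoots, and that of the transcripts called lower was -0.68 in zaxinone shoots and -0.60 in mock shoots. Among the annotated loci, all 16 of the 17 called in mock shoots that were also tested in zaxinone shoots had the same sign there.

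The interaction of time and treatment was tested over the 12 shoot libraries, which asks whether the change from 2 h to 6 h differed between treatments. By edgeR's test 0% of 23890 transcripts were called, with 1511 at an unadjusted p under 0.05, and DESeq2 called 1 transcript in one direction and 2 in the other. For Os07g34570 the log2 fold change was 6.18 ± 0.19 in zaxinone shoots and 6.37 ± 0.16 in mock shoots, a difference of -0.19 ± 0.23. For Os05g33570, the pyruvate phosphate dikinase locus, it was -0.83 ± 0.10 in zaxinone shoots and -1.10 ± 0.10 in mock shoots, a difference of 0.27 ± 0.14. For the glucosyltransferase locus Os02g11640 the values were -2.90 ± 0.13 in zaxinone shoots and -2.37 ± 0.15 in mock shoots, a difference of -0.53 ± 0.21 (edgeR adjusted p = 0.766). A missing call does not show that the change was equal in both treatments.

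**Figure D4:**
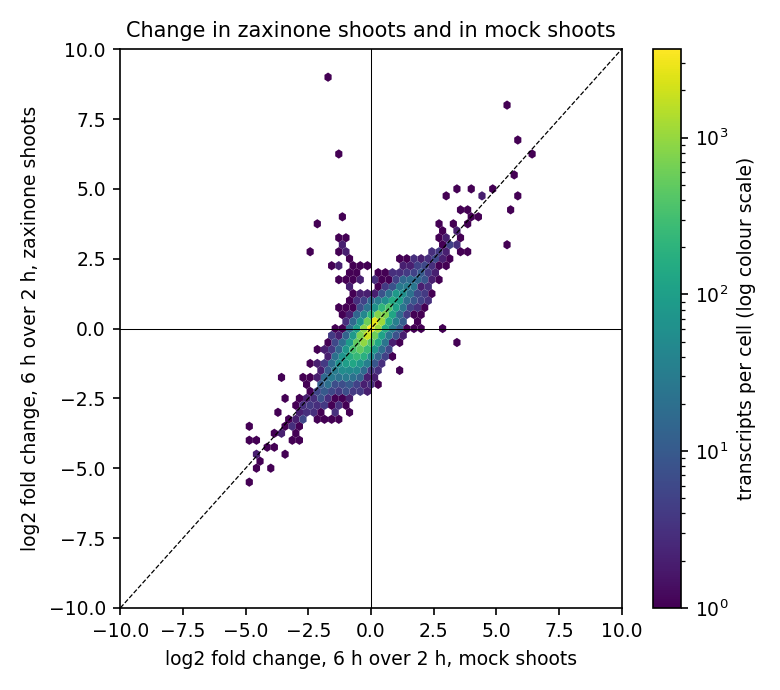
Log2 fold change of 6 h over 2 h in zaxinone shoots (vertical axis) against that in mock shoots (horizontal axis) for the 22947 transcripts tested in both, with the number of transcripts per hexagon as colour on a log scale and a dashed line of equal change. Most transcripts lie along the line. A group above it, with a rise in zaxinone shoots and a fall in mock shoots, belongs to transcripts high in 1 zaxinone library.

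The group off the line in that plot was high in replicate 2 of the zaxinone shoots of 6 h. This replicate held 13229890 reads, against 25175050 and 25710540 in replicates 1 and 3. In that library, 43 transcripts were at least 5 times as high as in either other zaxinone library of 6 h, a set chosen after the values were seen, and they summed to 10200 CPM there, against 100 to 196 CPM in the other 5 zaxinone libraries of these times. In mock shoots the same transcripts summed to 73.2, 122 and 95.9 CPM at 6 h, against 92.6, 126 and 368 CPM at 2 h, the highest value being that of replicate 3 of 2 h. Of the 35 of them tested in mock shoots, none was called higher and 7 were called lower, and without replicate 3 of 2 h 1 was called lower. These 7 are 0.107% of the calls in mock shoots. Without replicate 2 of the zaxinone shoots of 6 h, 96.8% of the tested transcripts called higher in mock shoots and 99.0% of those called lower had the same sign in zaxinone shoots, against 97.5% and 99.0% with it.

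In mock roots fewer transcripts were called over these hours. Of 23745 transcripts tested there, 1816 were called higher (7.65%) and 1811 lower (7.63%) at 6 h, or 15.3% in either direction. The libraries of mock roots were less alike at 2 h, with r between 0.977 and 0.983, against 0.992 to 0.994 in mock shoots of 2 h. The SD of the log2 fold changes over the 21393 transcripts tested in both tissues was 0.51 in shoots and 0.60 in roots, so that the lower number of calls does not show a smaller change. Of the transcripts called higher in mock shoots, 3411 were tested in mock roots, 2503 had the same sign there and 691 were also called higher. Of those called lower in mock shoots, 2704 were tested in roots, 1755 had the same sign and 517 were also called lower. The median log2 fold change of the transcripts called higher was 0.53 in shoots and 0.26 in roots, and that of the transcripts called lower was -0.57 in shoots and -0.20 in roots. With a log2 fold change beyond 1 in shoots, 469 of 554 tested transcripts called higher and 335 of 490 called lower had the same sign in roots. As these sets were chosen by their change in shoots, a smaller median in other libraries follows in part from the choice.

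The difference itself was tested as the interaction of time and tissue over the 12 mock libraries. Of 25755 transcripts, 2413 were called (9.37%), 1323 of them (5.14%) with a more positive and 1090 (4.23%) with a more negative change in shoots than in roots. These counts depended on single libraries. Without replicate 2 of the mock roots of 2 h they were 2731 and 2929. Without replicate 1 of the mock shoots of 2 h they were 708 and 576. One or both counts also fell by more than 1.5 times without replicate 2 of the shoots of 2 h (786 and 694), without any 1 library of the shoots of 6 h (720 to 834 and 633 to 664), and without replicate 1 (705 and 628) or replicate 2 (860 and 761) of the roots of 6 h. All 81 transcripts called higher in shoots and lower in roots were called in the interaction, as were all 89 called lower in shoots and higher in roots. Both sets were chosen by calls in these same 12 libraries, so that this outcome follows largely from the choice and is no separate test.

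**Figure D5:**
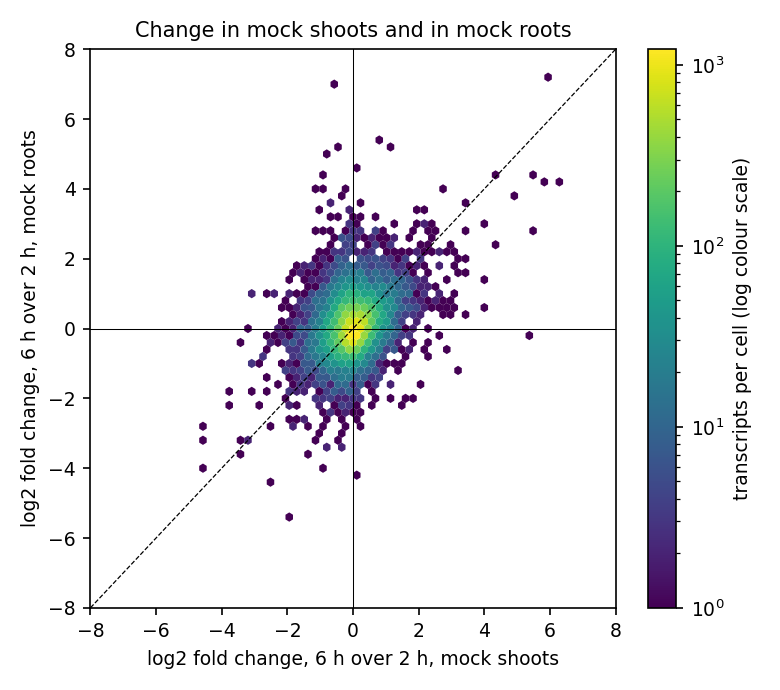
Log2 fold change of 6 h over 2 h in mock roots (vertical axis) against that in mock shoots (horizontal axis) for the 21393 transcripts tested in both, with the number of transcripts per hexagon as colour on a log scale and a dashed line of equal change. The cloud is broad, and transcripts lie in all 4 quadrants, while those with the largest changes in shoots mostly had a change of the same sign in roots.

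Among the named loci, Os07g34570 rose in both tissues but more in shoots. It was named for its change in these same mock shoots, so that a larger change there follows in part from the choice. In mock roots it had 509, 484 and 687 CPM at 6 h, against 20.8, 32.3 and 37.8 CPM at 2 h, a log2 fold change of 4.21 ± 0.25, and the difference of shoots minus roots was 2.15 ± 0.30 (edgeR adjusted p = 0.000816). The glucosyltransferase locus Os02g11640, which fell in shoots, had 2.29, 1.62 and 2.61 CPM in mock roots at 6 h, against 0.610, 1.65 and 0.959 CPM at 2 h. Its log2 fold change in roots was 1.02 ± 0.41 and was not called (edgeR adjusted p = 0.121). The difference of shoots minus roots was -3.39 ± 0.39 (edgeR adjusted p = 0.000239). Os03g47610 also rose in roots, by 3.77 ± 0.44 on the log2 scale. It had 6.05, 2.65 and 6.51 CPM there at 6 h, against 0.458, 0.263 and 0.392 CPM at 2 h. Os02g58100 fell in roots by a log2 fold change of -4.05 ± 0.67, with 0.123, 0.0396 and 0.0318 CPM at 6 h, against 1.14, 0.639 and 1.57 CPM at 2 h. Os03g47610 at 2 h and Os02g58100 at 6 h thus rested on few reads in roots. For neither was a difference between the tissues called (edgeR adjusted p = 0.202 and 0.822), which does not show equal changes.

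Whether the level of 6 h was kept until 24 h was described in the zaxinone shoots, which took no part in the choice of the transcripts. For the 644 transcripts called higher in mock shoots with a log2 fold change above 1, the median level in zaxinone shoots, as log2(CPM + 1), was 1.89 at 2 h, then 3.18 at 6 h and 1.49 at 24 h. For the 643 called lower with a log2 fold change below -1, the median was 3.48 at 2 h, then 2.03 at 6 h and 3.74 at 24 h. The mean level of 24 h was nearer to that of 2 h than to that of 6 h for 606 of the 644 (94.1%) and for 574 of the 643 (89.3%). The same share over all tested transcripts is not at hand, so these shares are not shown to be particular to the called transcripts. A harvest 24 h after application falls at the hour of day of the application itself. The part of the time of day and that of the time since application in this pattern cannot be told apart and was not tested.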

How the data were processed

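For paired-end RNA libraries of roots and shoots, raw read counts of every transcript were deposited in a table per tissue and time. Per the labels, the authors trimmed reads with Trimmomatic, aligned them with HISAT2 (to O. sativa v7.0, per the study's methods) and counted them with HTSeq. Versions and the strand setting are not given in the sources used here. The deposited tables also hold the authors' DESeq2 log2 fold changes and p-values of zaxinone over mock, which were not used. Tables were joined by transcript, a missing row counting as 0. Mock shoots were compared in R 4.3.3 with edgeR 4.0.16 (filterByExpr, TMM, glmQLFit, glmQLFTest), calling transcripts at an adjusted p under 0.05. SE is the log2 fold change over the square root of F. The labels do not say which plants a library came from, so that p-values measure the spread between these libraries. No replicates looked like a library deposited again (chi-square of at least 5.49 per degree of freedom).

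Loci were named by rule: those the study annotates or measured by qRT-PCR, and 2 unannotated transcripts per direction. The members and lists were chosen with earlier results of these data known. Lists of clock, light-harvesting and other genes were not analysed here, because 0 identifiers matched the RefSeq table. Alternatives were DESeq2 1.42.0, other scalings and filters, the replicate block, all 18 shoot libraries in one fit, a fold threshold and each library left out. On counts simulated for the comparison of mock shoots, a somewhat larger share of the calls was false than the threshold allows. Far fewer transcripts were changed there than were called in the data, so the false share among the real calls was not measured.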

Additional observations from a re-analysis of the deposited data

Results flagged for a closer look

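The change over time differed between mock shoots and mock roots for 4 of the named loci by edgeR's test of the interaction. Of these, 3 belong to the 58 annotated loci, not all of which were tested in this interaction, beside 9.37% of all 25755 transcripts called in it. Os07g34570 was named for its change in these mock shoots, so that a larger change there than in roots follows in part from the choice. For Os07g34570 the difference of shoots minus roots in log2 fold change was 2.15, and for the glucosyltransferase locus Os02g11640 it was -3.39. For Os12g08170, the E2 acetyltransferase of pyruvate dehydrogenase, it was -0.78 ± 0.18 (SE, edgeR adjusted p = 0.0174). Mock roots of 6 h were also controls in the contrast by which the study chose this locus. Its level was 28.1, 25.4 and 24.6 CPM in mock shoots at 6 h, against 29.2, 28.3 and 25.7 CPM at 2 h, and 27.0, 25.4 and 25.9 CPM in mock roots at 6 h, against 13.2, 19.0 and 16.6 CPM at 2 h. For Os01g42370, one of the qRT-PCR loci, it was 2.05 ± 0.57 (edgeR adjusted p = 0.038), on between 15 and 39 reads per mock shoot library. The study picked this locus for its response to zaxinone in roots, where mock roots were the controls. Its level was 0.690, 1.22 and 0.608 CPM in mock shoots at 6 h, against 1.51, 0.912 and 0.682 CPM at 2 h, and 2.00, 0.791 and 1.27 CPM in mock roots at 6 h, against 7.93, 7.71 and 4.88 CPM at 2 h.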

How the results depend on the processing

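The counts of calls over time in mock shoots stayed within 1.5 times under DESeq2, other scalings and filters, all 18 shoot libraries in one fit, and with each library left out. Leaving out 1 library gave between 2656 and 3174 higher and between 2362 and 2859 lower. A log2 fold change beyond 1 left 644 higher and 643 lower. DESeq2 called 5941 transcripts, 5768 of them shared with edgeR's 6538. The share of higher calls moved by less than 10 percentage points, and the median change by under 0.1 on the log2 scale, under every scaling tried. Libraries with the same replicate number were not treated as pairs, since the deviations of same-numbered mock shoot libraries from their group means correlated with r = 0.07, -0.04 and -0.14. With the replicate block 3239 were called higher and 2752 lower in mock shoots, 2979 and 3582 in zaxinone shoots, 0 in the interaction with zaxinone, and 928 and 926 in that with roots. In zaxinone shoots, leaving out 1 library gave between 1978 and 3779 higher and between 2346 and 4334 lower. In the interaction of time and tissue it gave between 705 and 2731 and between 576 and 2929, and DESeq2 called 1721 with a more negative change in shoots. In the interaction of time and treatment DESeq2 called 1 with a more positive and 2 with a more negative change under zaxinone, and with each library left out edgeR called 0. The cause of these differences was not tested.

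Among the named loci no called change turned its sign. Leaving out 1 library turned the sign of loci that were not called, which ranged between -0.066 and 0.017 for Os05g33380, -0.051 and 0.008 for Os04g40950, -0.066 and 0.024 for Os12g05110, -0.013 and 0.111 for Os03g44420, -0.023 and 0.072 for Os01g06660 (0.000 with upper quartile factors), -0.246 and 0.731 for Os04g44250, -0.822 and 0.053 for Os05g45100, -0.070 and 0.042 for Os07g13770, -0.480 and 0.207 for Os01g45110, -0.025 and 0.233 for Os04g57720, -0.273 and 0.007 for Os01g71310, -0.077 and 0.027 for Os06g08440, -0.672 and 0.082 for Os01g42370, and -0.339 and 0.522 for Os05g45230. Calls ended in another fit for 8 annotated loci, with adjusted p of up to 0.0899 for Os01g46070, 0.0756 for Os01g53430, 0.0874 for Os02g07490, 0.0561 for Os02g10070, 0.0732 for Os05g12450, 0.0593 for Os06g11130, 0.179 for Os08g02700 and 0.0687 for Os11g10980, the replicate block ending 7 of them. Calls were gained by Os05g40420 with all 18 shoot libraries (adjusted p = 0.0261) and by Os10g07556 with at least 10 counts in every library (adjusted p = 0.0281). Of the transcripts with a mean under 1 CPM 10.4% were called, and of those between 10 and 100 CPM 34.3%; the part of depth in this was not tested.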
